A study of Caenorhabditis elegans with 8 samples.

Results

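The insulin receptor pathway of *Caenorhabditis elegans* was followed from the receptor to its transcription factor through 10 genes: *daf-2*, *ist-1*, *age-1*, *aap-1*, *pdk-1*, *akt-1*, *akt-2*, *sgk-1*, *daf-18* and *daf-16*. A gene was taken from the probe set that the annotation of the array assigns to it alone. Each of the 10 genes had a single such probe set, out of 25478 genes named in this way. The samples were 4 of *dyf-1(mn335)*, strain PP896, and 4 of wild-type N2 Bristol, hybridised to Affymetrix gene arrays, all from age-synchronised day 1 adult hermaphrodites. *dyf-1(mn335)* is a loss-of-function mutant that lacks the distal segments of its sensory cilia, because DYF-1 links the kinesin OSM-3 to the intraflagellar transport particles. The sample labels name no transgene or treatment. Each sample is a pool of whole worms, so that fewer cells of a type and less RNA per cell cannot be told apart.

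Insulin-like peptides bind DAF-2, the insulin and IGF receptor of the worm. The receptor then activates a phosphoinositide 3-kinase, whose lipid product recruits PDK-1 and the kinases AKT-1 and AKT-2. These phosphorylate the FOXO transcription factor DAF-16 and hold it in the cytoplasm, while the lipid phosphatase DAF-18 works against the kinase. The pathway is known for its control of dauer formation, fat storage and lifespan, and the intestine is a main site of DAF-16 action. Much of it is regulated by phosphorylation and by the location of its proteins, which an array of transcripts does not measure. The study placed calcineurin upstream of DAF-16 in the intestine of the mutant, beside an insulin-like peptide that acts without DAF-16, which raises the question of whether the transcripts of this pathway differ between the strains.

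2 of the 10 genes passed the threshold, an adjusted p under 0.01 from limma over all 29317 probe sets. *ist-1*, an insulin receptor substrate, and *akt-2*, an AKT kinase, were higher in *dyf-1(mn335)*. Of all probe sets, 6.56% were called higher, so that 2 of 10 is more than this share but rests on only these genes. None of the 10 was called lower, against 3.46% of all probe sets. At an unadjusted p under 0.05 from limma, *ist-1*, *akt-2* and *pdk-1* were higher (19% of all probe sets) and *sgk-1* was lower (20% of all probe sets). The 10 genes had a median log2 fold change of 0.23, against -0.04 over all probe sets. The arrays of the strains did not overlap for 4 of the 10 genes, *ist-1* and *akt-2* with the mutant above and *sgk-1* and *daf-18* with the mutant below, against 23.7% of all probe sets.

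Some properties of the 8 arrays bear on these values. The log2 values of the 10 genes lay between 6.54 and 11.89, and no gene was dim, which was taken as a mean log2 value under 5. A value of 1 on this scale is a doubling of the signal, and levels of different probe sets cannot be set against each other. Replicate 4 of each strain stood apart, since wild-type replicate 4 correlated with wild-type replicates 1 to 3 at 0.958 to 0.974 over all probe sets and with mutant replicates 1 to 3 at 0.976 to 0.978. The correlation of mutant replicate 4 with mutant replicates 1 to 3 was 0.978 to 0.984. Among themselves, replicates 1 to 3 correlated at 0.993 to 0.994 in the mutant and at 0.987 to 0.992 in wild-type. The higher calls made up 65.5% of all calls, and 47.8% once the median of every array was subtracted, a centring that shifted the median over all probe sets to -0.19. The *dyf-1* probe set itself was higher in the mutant by 1.18 on the log2 scale (standard error 0.19, adjusted p = 0.0031 from limma). Since the sources do not state the lesion of *mn335*, the level of its transcript is no check of the labels. P-values measure the spread between the labelled replicates only, and the number of arrays limits their precision.

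**Figure D1:**
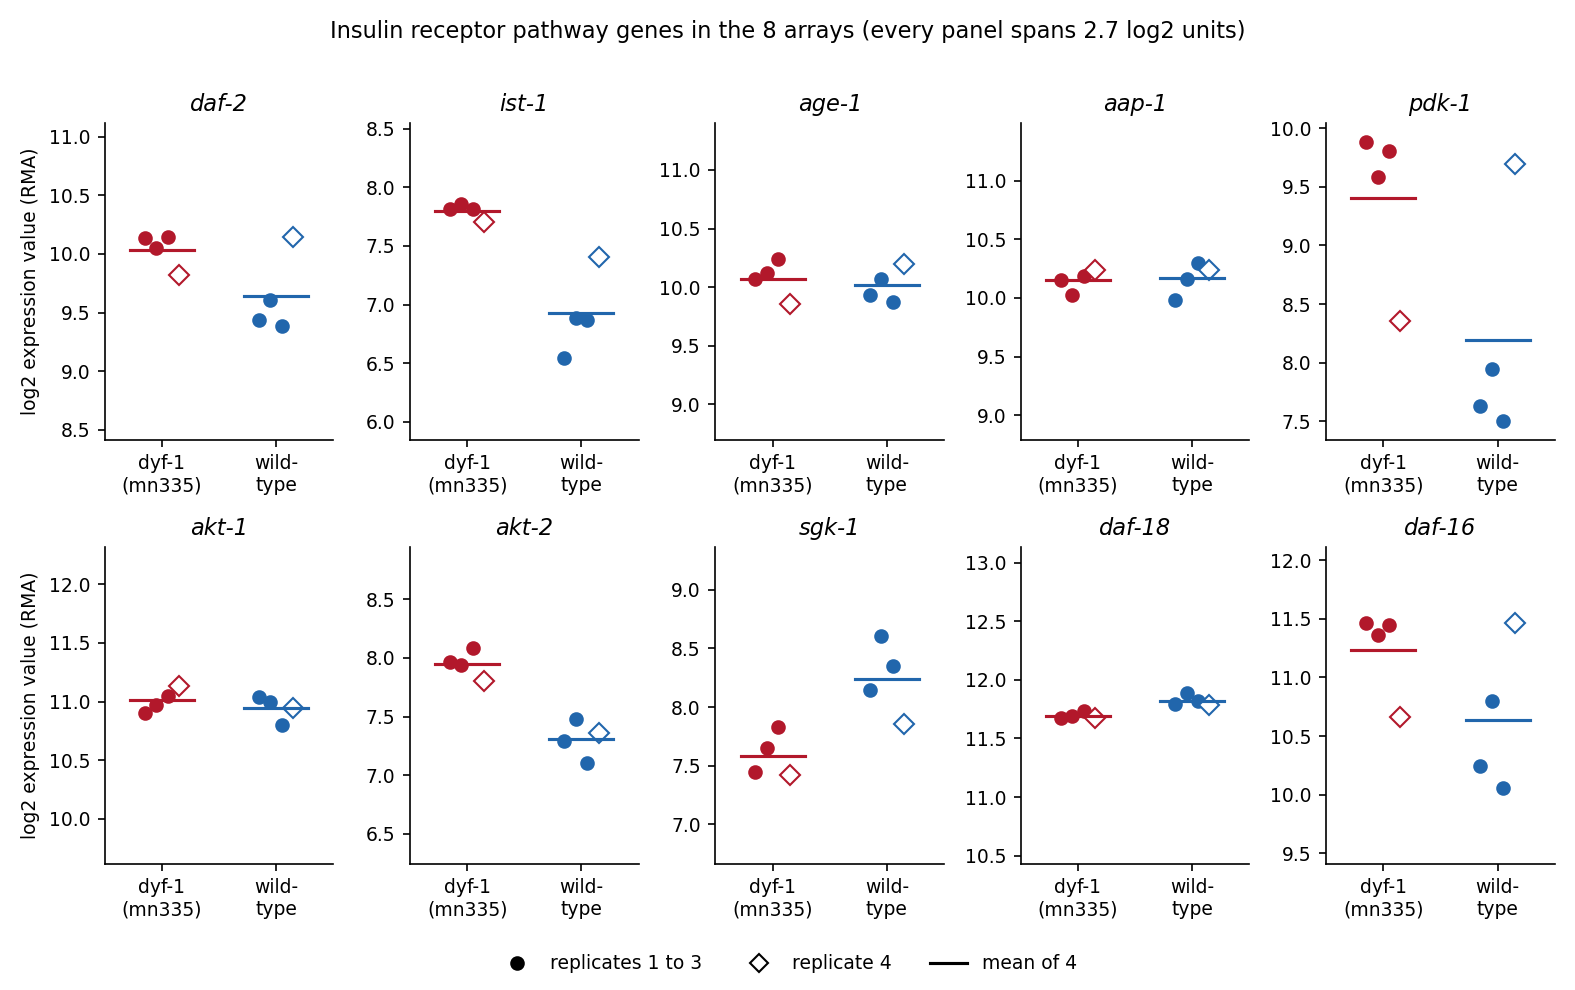
Log2 expression values of the 10 genes in each array, with *dyf-1(mn335)* in red on the left and wild-type in blue on the right of every panel. Filled circles are replicates 1 to 3, open diamonds replicate 4 and lines the mean of 4 arrays. The strains are apart for *ist-1*, *akt-2*, *sgk-1* and *daf-18*, and for *pdk-1* and *daf-16* the replicate 4 arrays lie on the side of the other strain.

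At the head of the pathway, the substrate gene *ist-1* was higher in the mutant and the receptor gene *daf-2* did not pass. The probe set of *ist-1*, whose protein is the worm relative of the insulin receptor substrates that dock signalling enzymes to the receptor, had log2 values of 7.82, 7.85, 7.82 and 7.71 in *dyf-1(mn335)*, against 6.54, 6.89, 6.86 and 7.40 in wild-type. All mutant arrays were above the highest wild-type array, and the mutant arrays were the tighter group. *ist-1* rose by 0.87 on the log2 scale (standard error 0.18, 95% interval 0.47 to 1.28, 1.83-fold, adjusted p = 0.0090 from limma). The call was close to the threshold. It held without wild-type replicate 4 (log2 fold change 1.03, adjusted p = 5.1e-04 from limma) and was lost without any single one of the other 7 arrays (log2 fold changes of 0.75 to 0.91, adjusted p = 0.016 to 0.031 from limma), with each array centred on its median (0.72, adjusted p = 0.016 from limma), after cyclic loess (0.84, adjusted p = 0.012 from limma), and with an intensity trend and robust spread (0.87, adjusted p = 0.013 from limma).

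*daf-2* had log2 values of 10.14, 10.05, 10.14 and 9.82 in *dyf-1(mn335)*, against 9.44, 9.61, 9.38 and 10.15 in wild-type. Wild-type replicate 4 was thus the highest of all 8 arrays, and the other 3 wild-type arrays lay below all mutant arrays. The log2 fold change of 0.39 (standard error 0.19, 95% interval -0.03 to 0.82) did not pass (adjusted p = 0.15 from limma). Without wild-type replicate 4 it was 0.56 (adjusted p = 0.0103 from limma). Leaving out any single one of the other 7 arrays gave 0.31 to 0.47 (adjusted p = 0.12 to 0.32 from limma). *daf-2* and *daf-16* give rise to several transcripts, which a single probe set does not separate.

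The subunits of the phosphoinositide 3-kinase and the phosphatase that opposes it differed little between the strains. *age-1*, the catalytic subunit, had log2 values of 9.86 to 10.24 in *dyf-1(mn335)*, against 9.87 to 10.20 in wild-type. *aap-1*, the adaptor subunit, had values of 10.03 to 10.23 in the mutant, against 9.98 to 10.30 in wild-type. For both genes the range of the mutant arrays largely coincided with that of the wild-type arrays. The 95% interval of the log2 fold change ran from -0.26 to 0.37 for *age-1* (estimate 0.05, adjusted p = 0.80 from limma). It ran from -0.31 to 0.27 for *aap-1* (estimate -0.02, adjusted p = 0.92 from limma).

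*daf-18*, whose protein opposes AGE-1, had log2 values of 11.68, 11.69, 11.73 and 11.67 in *dyf-1(mn335)*, against 11.79, 11.89, 11.82 and 11.79 in wild-type. All mutant arrays lay below all wild-type arrays, by a gap of 0.05, and *daf-18* had the lowest spread of the 10 genes (SD 0.03 in the mutant and 0.05 in wild-type, n = 4 each). The log2 fold change of -0.13 (standard error 0.11, 95% interval -0.38 to 0.12) did not pass (adjusted p = 0.43 from limma). limma moderates the spread of a single probe set towards that of all probe sets, so that its standard error here is larger than the spread between the *daf-18* values. The exact two-sided permutation test gave p = 0.0286, and no comparison of 4 arrays with 4 can give a smaller p.

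Among the kinases, the 4 genes gave 4 different pictures. *akt-2* rose, *akt-1* overlapped, *sgk-1* was lower in all mutant arrays without passing, and *pdk-1* had the widest spread of the pathway. *akt-2*, which phosphorylates DAF-16 together with *akt-1*, had log2 values of 7.97, 7.94, 8.09 and 7.80 in *dyf-1(mn335)*, against 7.29, 7.48, 7.10 and 7.36 in wild-type. No array of one strain reached those of the other, and here wild-type replicate 4 lay among the other wild-type arrays. *akt-2* rose by 0.64 on the log2 scale (standard error 0.13, 95% interval 0.34 to 0.94, 1.56-fold, adjusted p = 0.0095 from limma). Without wild-type replicate 4 the value was 0.66 (adjusted p = 0.0057 from limma). Without any single one of the other 7 arrays the call was lost (0.57 to 0.70, adjusted p = 0.012 to 0.035 from limma), as it was with each array centred on its median (0.48, adjusted p = 0.026 from limma) and with an intensity trend and robust spread (0.64, adjusted p = 0.019 from limma).

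*akt-1*, the other AKT kinase gene, had log2 values of 10.90 to 11.13 in *dyf-1(mn335)*, against 10.80 to 11.03 in wild-type. The ranges overlapped, and the log2 fold change of 0.07 had a 95% interval of -0.21 to 0.34 (adjusted p = 0.71 from limma). *sgk-1*, a serum- and glucocorticoid-regulated kinase that acts beside the AKT kinases and also downstream of TOR complex 2, had values of 7.44, 7.65, 7.83 and 7.42 in *dyf-1(mn335)*, against 8.15, 8.60, 8.35 and 7.85 in wild-type. The highest mutant array and the lowest wild-type array, replicate 4, were 0.03 apart. The log2 fold change of -0.65 (standard error 0.18, 95% interval -1.07 to -0.24) did not pass (adjusted p = 0.031 from limma). Without wild-type replicate 4 *sgk-1* was called lower, at -0.78 (adjusted p = 0.0052 from limma), and it had the only negative log2 fold change under an unadjusted p of 0.05 in the pathway. Leaving out any single one of the other 7 arrays gave no call of *sgk-1* (-0.73 to -0.53, adjusted p = 0.043 to 0.087 from limma).

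*pdk-1*, the kinase that activates AKT-1 and AKT-2, had log2 values of 9.88, 9.58, 9.81 and 8.36 in *dyf-1(mn335)*, against 7.63, 7.94, 7.51 and 9.69 in wild-type. Replicates 1 to 3 of the mutant lay far above replicates 1 to 3 of wild-type, by 2.06 on average. The replicate 4 arrays lay the other way round, with wild-type replicate 4 above mutant replicate 4. Over all 8 arrays the log2 fold change was 1.21 (standard error 0.51, 95% interval 0.07 to 2.36), the largest of the 10 genes, and did not pass (adjusted p = 0.11 from limma). Without wild-type replicate 4 the gene was called higher, at 1.71 (adjusted p = 0.0048 from limma), and without mutant replicate 4 it was at 1.56 (adjusted p = 0.048 from limma). Leaving out any single array other than wild-type replicate 4 gave no call of *pdk-1* (0.98 to 1.56, adjusted p = 0.048 to 0.25 from limma).

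*daf-16*, the FOXO transcription factor at the end of the pathway, had, as *pdk-1* did, its replicate 4 arrays the other way round from replicates 1 to 3. Its log2 values were 11.47, 11.36, 11.45 and 10.66 in *dyf-1(mn335)*, against 10.24, 10.80, 10.05 and 11.46 in wild-type. Replicates 1 to 3 of the mutant lay 1.06 above those of wild-type on average, and wild-type replicate 4 lay within the range of these mutant arrays. Mutant replicate 4 in turn lay within the range of wild-type replicates 1 to 3. The log2 fold change of 0.60 (standard error 0.32, 95% interval -0.11 to 1.31) did not pass (adjusted p = 0.19 from limma). Without wild-type replicate 4 it was 0.87 (adjusted p = 0.022 from limma), and without both replicate 4 arrays *daf-16* was called higher, at 1.06 (adjusted p = 0.0032 from limma). Leaving out any single array other than wild-type replicate 4 gave no call of *daf-16* (0.40 to 0.79, adjusted p = 0.098 to 0.41 from limma).

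**Figure D2:**
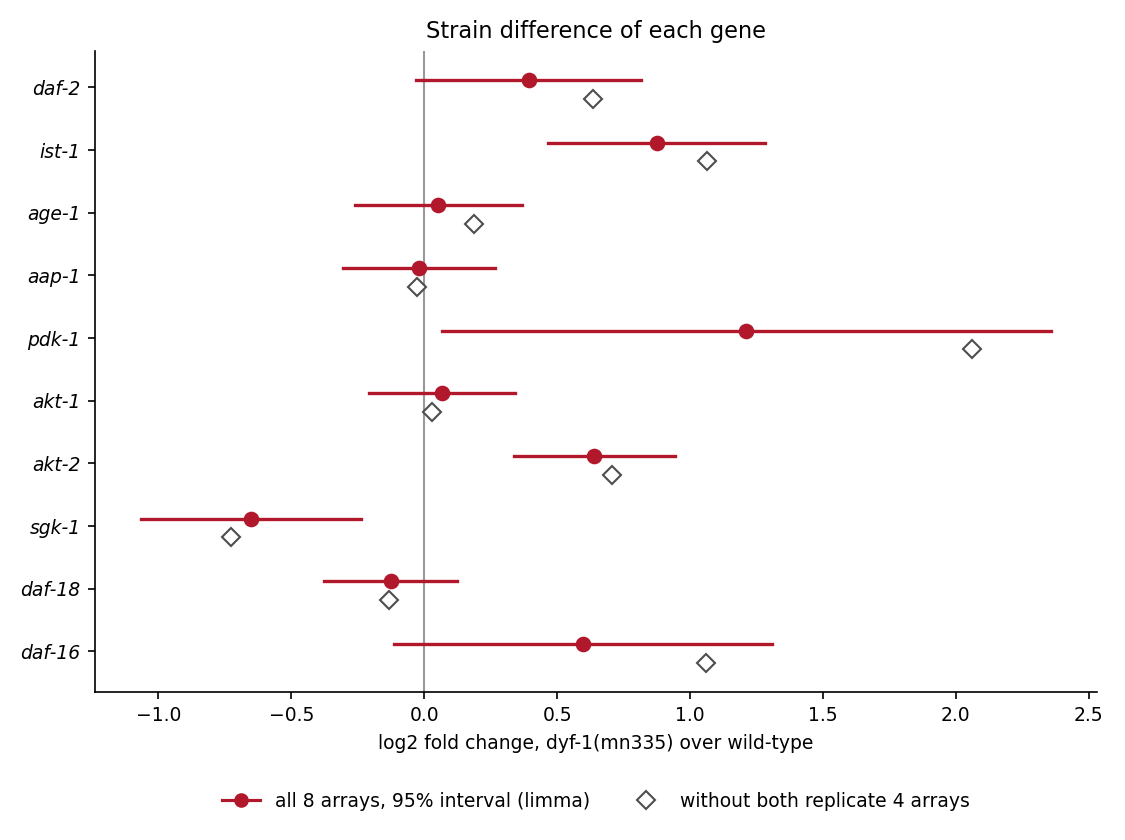
Log2 fold change of *dyf-1(mn335)* over wild-type for each gene on the horizontal axis, as red points with their 95% interval from limma over all 8 arrays, and as open diamonds without both replicate 4 arrays. *pdk-1* moves from 1.21 to 2.06 and *daf-16* from 0.60 to 1.06 when these arrays are left out, whereas *akt-1* stays at 0.07 and 0.03.

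Without both replicate 4 arrays, 3 arrays against 3, limma called *daf-2*, *ist-1*, *pdk-1*, *akt-2* and *daf-16* higher and *sgk-1* lower. The same 6 genes were called when limma weighted the arrays by their agreement, a fit that called 5489 higher and 5391 lower of all 29317 probe sets. Its weights are estimated from these same values, so that it is no separate support for the 3 against 3 comparison. *age-1*, *aap-1*, *akt-1* and *daf-18* were called in neither fit. Many more probe sets were called as well in the 3 against 3 comparison, 4977 higher and 4781 lower of 29317. The position of the replicate 4 arrays was not particular to the pathway. For the 6 genes whose replicates 1 to 3 differed by at least 0.5 between the strains, wild-type replicate 4 lay nearer to the mean of the mutant arrays than to that of the wild-type arrays in 5, all but *akt-2*, where this held for 64.8% of all probe sets with such a gap. Mutant replicate 4 also lay nearer to the other strain for 2 of the 6, *pdk-1* and *daf-16*. Both replicate 4 arrays did so in 25.9% of all probe sets with such a gap.

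**Figure D3:**
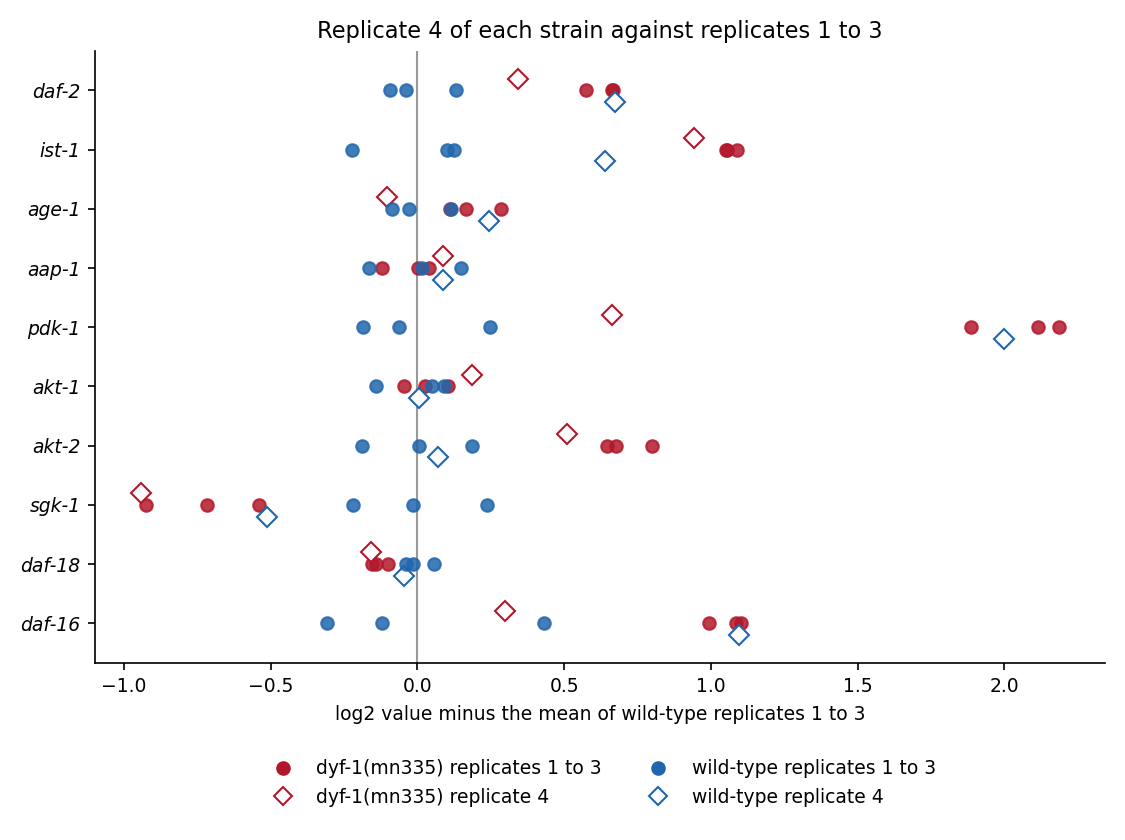
Log2 value of each array minus the mean of wild-type replicates 1 to 3, for each gene, with *dyf-1(mn335)* in red and wild-type in blue. Filled circles are replicates 1 to 3 and open diamonds replicate 4. For *daf-16* wild-type replicate 4 lies 1.10 above the other wild-type arrays, and for *akt-2* it lies 0.07 above them.

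Markers of several cell types moved with these arrays. Of 10 neuronal markers 6 were called higher and none lower by limma, against 6.56% and 3.46% of all probe sets. All 10 neuronal markers were above the dim level in wild-type. Their summed level was at log2 values of 13.39 to 13.42 in *dyf-1(mn335)*, against 12.63 to 12.99 in wild-type, and wild-type replicate 4 was the highest wild-type array. Such a sum adds the linear values of the markers, so that the brightest probe sets weigh most. Of 5 pharyngeal muscle markers, none dim, 2 were called higher, with a summed level of 12.51 to 12.78 in the mutant, against 11.14 to 12.11 in wild-type, where replicate 4 was again highest. These 2 groups thus lay on the same side as *ist-1*. Of 6 germline markers, none of them dim, none was called in either direction, and their summed level was 13.27 to 13.76 in the mutant, against 13.09 to 13.85 in wild-type. Mutant replicate 4 had the lowest mutant value and wild-type replicate 4 the highest wild-type value of the germline sum, as they had for *pdk-1* and *daf-16*, and the same held for the sums of the pharyngeal muscle markers, of 7 oocyte and eggshell markers and of 5 body wall muscle markers (13.52 to 13.69 in the mutant, against 13.33 to 13.68 in wild-type). The summed level of 5 sperm markers, of which *spe-9*, *spe-38* and *fer-1* were dim in wild-type, was 7.29 to 7.61 in the mutant, against 7.89 to 8.55 in wild-type. It was thus lower in the mutant, as *sgk-1* was, but its wild-type replicate 4 was the highest wild-type array, whereas for *sgk-1* it was the lowest. The part of these cell types in the values of the pathway was not tested. Among the other marker lists, 1 of 6 epidermal markers was called higher and 1 lower, 1 of 5 intestinal markers was higher and 2 were lower, and none of the body wall muscle, oocyte and eggshell and sperm markers was called. The epidermal sum was 11.50 to 11.79 in the mutant, against 11.60 to 11.92 in wild-type. Yet 5 of the 6 epidermal markers had a positive log2 fold change, so that a sum and its markers can differ in direction.

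Whether the partners of a step moved unequally was asked within arrays, as the difference between their log2 values in each array, which removes whatever shifts both genes alike. For *akt-2* minus *akt-1* this difference was -2.93, -3.03, -2.96 and -3.33 in *dyf-1(mn335)*, against -3.74, -3.52, -3.70 and -3.59 in wild-type. The strains did not overlap, and *akt-2* shifted by 0.57 (standard error 0.11) more than *akt-1*. For *ist-1* minus *daf-2* the difference was -2.32, -2.20, -2.32 and -2.11 in the mutant, against -2.90, -2.72, -2.52 and -2.74 in wild-type. These did not overlap either, with a shift of 0.48 (standard error 0.09), and wild-type replicate 4 lay among the other wild-type arrays here although it did not for *ist-1* or *daf-2* alone. For *sgk-1* minus *akt-1* the difference was -3.46, -3.32, -3.22 and -3.71 in the mutant, against -2.89, -2.39, -2.45 and -3.09 in wild-type, a shift of -0.72 (standard error 0.20) with no overlap. Each of these 3 shifts had p = 0.0286 in the exact two-sided permutation test, the smallest p that the design allows, and 0.0476 after adjustment over the 5 pairs compared. Without any single array all 3 kept their direction, and their p from the exact permutation test, adjusted over the 5 pairs, was 0.0714 to 0.0952. The pairs were chosen with earlier results of these data known. *akt-1* itself had a log2 fold change of only 0.07. The shifts of *akt-2* and *sgk-1* against it thus largely repeat their own log2 fold changes and are no separate support for them.

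The other pairs overlapped. *age-1* minus *aap-1*, the subunits of the lipid kinase, averaged -0.08 ± 0.22 in *dyf-1(mn335)* and -0.15 ± 0.18 in wild-type (SD, n = 4 each; exact two-sided permutation test, p = 0.543), with an interval of the shift from -0.27 to 0.42. *daf-18* minus *age-1*, the opposing lipid enzymes, averaged 1.62 ± 0.14 in the mutant and 1.80 ± 0.15 in wild-type (SD, n = 4 each; exact two-sided permutation test, p = 0.143), with an interval of -0.44 to 0.08.

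**Figure D4:**
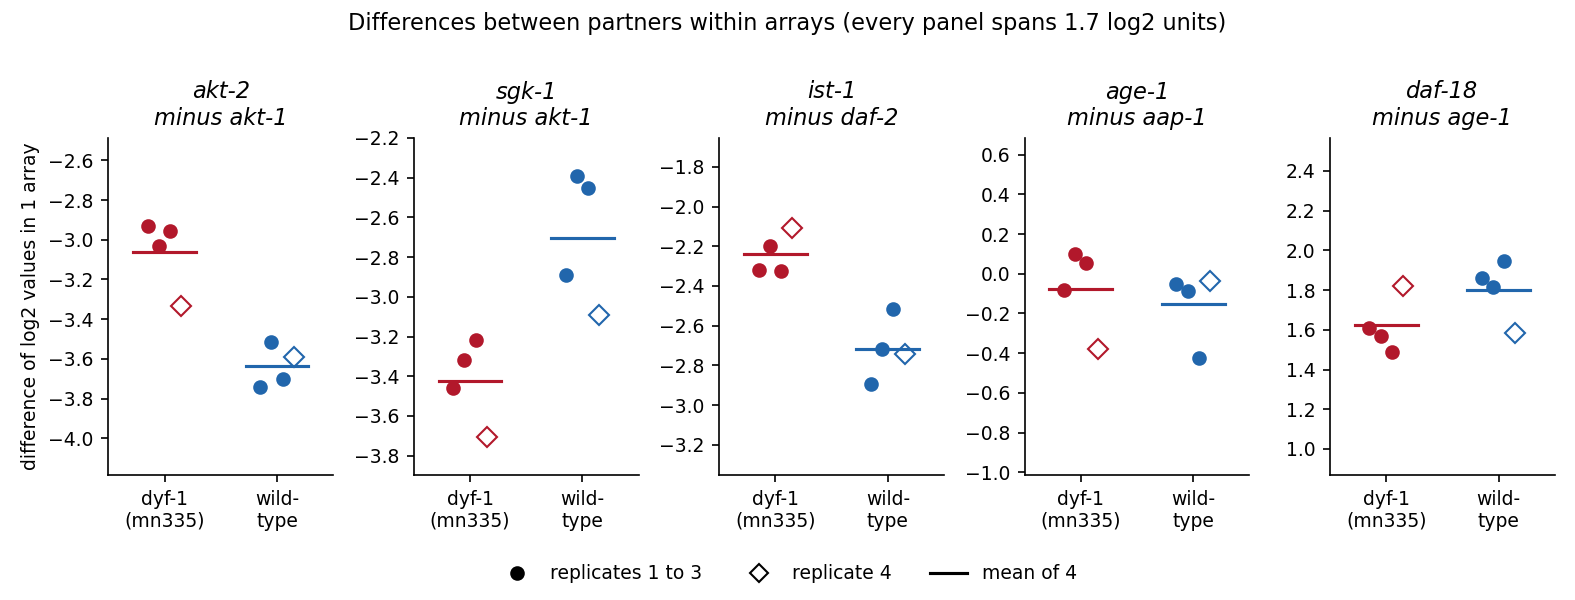
Difference of the log2 values of 2 genes within each array, for 5 pairs, with *dyf-1(mn335)* in red on the left and wild-type in blue on the right of every panel, replicate 4 as an open diamond and the mean of 4 arrays as a line. The height of a panel depends on the probe sets, and only the shift between the strains is compared. The strains are apart for *akt-2* minus *akt-1*, *sgk-1* minus *akt-1* and *ist-1* minus *daf-2*.

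The genes whose profile over the 8 arrays lay nearest to a member were found from the root mean square difference of log2 values centred on each gene's mean, among the 25477 other genes. Nearest to *ist-1* was *sbt-1*, the chaperone of a neuropeptide-processing convertase, at 0.07, followed by *sup-26*, an RNA-binding protein gene, and *F39B1.5*, both at 0.09. The median distance of all genes from *ist-1* was 0.57. Nearest to *akt-2* were *npr-32*, named as a neuropeptide receptor, at 0.04, *B0361.4* at 0.06 and *ZC455.16* at 0.08, with a median over all genes of 0.47. For 3 further members, chosen after their values were seen, the nearest were *lag-2*, a Notch ligand gene, for *pdk-1* (0.12), *htp-2*, a gene of meiotic chromosome axes, for *daf-16* (0.04), and *otub-1*, a deubiquitinating enzyme gene, for *sgk-1* (0.07).

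Genes around the pathway were counted from 8 lists. Over all probe sets, limma called 6.56% higher and 3.46% lower. Upstream, of 40 insulin-like peptide genes *ins-1* and *ins-5* were called higher and *ins-13* and *ins-23* lower, and the list had a median of -0.26. *ins-13* was dim in either strain, and *ins-23* was dim in *dyf-1(mn335)* alone. At an unadjusted p under 0.05 from limma, 6 were higher and 15 lower. Over all probe sets, 19% were higher and 20% lower at this p, which also applies to the lists below. The count of lower calls was 11 without wild-type replicate 4, 0 or 1 without any other single array, and 0 with a replicate block. The count of higher calls was 1 after median centring, without any single mutant array, and without wild-type replicate 1 or 2. It was 0 with a replicate block. None of 5 genes of the membrane complex that aids AKT-1 was called (median 0.13), and 1 was higher at an unadjusted p under 0.05 from limma, *sdf-9*, with log2 means of 2.97 and 2.46 that are dim in both strains. None of 4 genes of TOR complex 2 and the phosphatase PP2A was called (median 0.43), and 2 of them were higher at an unadjusted p under 0.05 from limma. The lowest p among these was that of *mlst-8*, a subunit of both TOR complexes, with log2 values of 10.18, 10.18, 10.20 and 10.44 in *dyf-1(mn335)*, against 9.62, 9.76, 9.36 and 10.14 in wild-type. Its arrays did not overlap, and its log2 fold change of 0.53 did not pass (adjusted p = 0.057 from limma).

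Of 11 measured genes whose proteins bind DAF-16, set its turnover or act as its cofactors, none was called (median 0.13). An unadjusted p under 0.05 from limma was reached by 2 on the higher and 1 on the lower side, against 19% and 20% of all probe sets. *jnk-1*, a JNK kinase that phosphorylates DAF-16, came nearest, with log2 values of 6.95, 6.92, 6.91 and 7.28 in *dyf-1(mn335)*, against 6.36, 6.46, 6.33 and 5.91 in wild-type. The strains were apart, and the log2 fold change of 0.76 fell just short of the threshold (adjusted p = 0.0106 from limma). Of 3 other transcription factors placed downstream of DAF-2, none was called, and *skn-1*, the worm NRF factor, was at 0.43 (adjusted p = 0.078 from limma). Among calcineurin and CaMKII, which act on DAF-16 from outside the insulin pathway, *tax-6*, the catalytic subunit of calcineurin, was called higher (log2 fold change 1.11, adjusted p = 0.0095 from limma). *unc-43*, the CaMKII gene, had a log2 fold change of 1.17 without overlap of the arrays and did not pass (adjusted p = 0.012 from limma), and *cnb-1*, the regulatory subunit of calcineurin, was at 0.06 (adjusted p = 0.86 from limma). The call of *tax-6* was lost with each array centred on its median, with a replicate block, and without any single array other than wild-type replicate 4, where *unc-43* was called too.

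Genes reported to respond to DAF-16 were called in either direction. Of 17 genes reported as activated by DAF-16, *mtl-1*, a metallothionein gene, was called higher and 3 were lower, *hsp-12.3*, which encodes a small heat shock protein, *fat-7*, which encodes a fatty acid desaturase, and *sod-3*, a superoxide dismutase gene that was dim in the mutant. At an unadjusted p under 0.05 from limma, 1 of the 17 was higher and 7 were lower, against 19% and 20% of all probe sets. Without wild-type replicate 4, 2 were called higher and 5 lower. Leaving out a single mutant array, or wild-type replicate 1 or 2, left 2 called lower. No gene was called higher without mutant replicate 3 or without wild-type replicate 1 or 2. A replicate block left 0 called higher and 1 lower. *fat-7* had log2 values of 6.10, 6.45, 6.49 and 6.08 in *dyf-1(mn335)*, against 8.97, 9.03, 8.78 and 8.39 in wild-type, which leaves a wide gap between the strains. *mtl-1* had values of 4.75, 4.94, 5.27 and 6.14 in the mutant, against 3.43, 3.50, 3.62 and 3.78 in wild-type, where it was dim. This list had a median of -0.26, and several of its genes were dim in both strains. Of 11 measured genes reported as lowered by DAF-16, *gcy-18*, a guanylyl cyclase gene of the AFD thermosensory neurons, was called higher and none lower. Of the 11, 6 were lower at an unadjusted p under 0.05 from limma, against 20% of all probe sets, and the median was -0.42. *gcy-18* was dim in wild-type. Of this list, 5 genes were called lower without wild-type replicate 4 and 4 at an adjusted p under 0.05 from limma. None was called lower when a single mutant array, or wild-type replicate 1 or 2, was left out. The same held with a replicate block and with an intensity trend and robust spread. With the replicate block *gcy-18* was not called either. Both lists thus had a median below that of all probe sets.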

How the data were processed

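RNA of whole day 1 adults of *dyf-1(mn335)* and wild-type, 4 arrays each, was hybridised to Affymetrix gene arrays. The deposited values are log2 expression values, which the authors made by RMA with the oligo package of R (background adjustment, quantile normalisation between arrays, median polish). Quantile normalisation can hide a shift of most transcripts in one strain, and the deposited values had a median of 5.32 in *dyf-1(mn335)* and 5.16 in wild-type. The table holds 29317 probe sets without missing values. Gene names come from the platform annotation, and all 10 symbols matched a current RefSeq gene table by Entrez ID. No genome build is given in the sources used here, and no coordinates or sequences are printed.

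Strains were compared with limma 3.58.1 (lmFit, eBayes; R 4.3.3) without covariates, two-sided, with Benjamini-Hochberg adjustment over all probe sets and an adjusted p under 0.01 as threshold. The fit was tested on simulated data. Members, lists and pairs were chosen with earlier results of these data known. Named genes are all members, at most 2 called genes in each direction of a list (the gene with the lowest p where none was called), and the 3 nearest profiles of each called member. *unc-43*, *cnb-1*, *sod-3* and the nearest profiles of *pdk-1*, *daf-16* and *sgk-1* lie outside this rule, and their values were known when they were named. Alternatives were an adjusted p under 0.05, a mean log2 value of at least 5, an intensity trend with robust spread, array weights, median centring, cyclic loess, a replicate block, averaging the probe sets of a gene, and leaving out arrays. Each member has a single probe set, so that the mean of its probe sets is the same value.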

Additional observations from a re-analysis of the deposited data

Results flagged for a closer look

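The *daf-16* value of 10.66 in *dyf-1(mn335)* replicate 4 lay far below those of the other 3 mutant arrays, at 11.36 to 11.47. Its gap to the nearest of them was 0.86 of the range of the mutant arrays, above Dixon's 95% critical value for 4 samples. It is the only such value among the 20 groups of 4 arrays examined, where chance gives about 1 in 20.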

How the results depend on the processing

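The count of 2 genes called higher and 0 lower became 2 and 1 at an adjusted p under 0.05, 5 and 1 with array weights, 5 and 1 without both replicate 4 arrays, 1 and 0 after cyclic loess, and 0 and 0 after median centring, with an intensity trend and robust spread, and with a replicate block. Leaving out each array in turn gave 0 to 3 higher and 0 to 1 lower, with 3 and 1 only without wild-type replicate 4. The median log2 fold change of 0.23 was 0.36 with array weights, 0.41 without both replicate 4 arrays, 0.075 after centring and 0.16 to 0.34 without single arrays (0.34 without wild-type replicate 4). Over all 29317 probe sets the calls higher and lower were 1924 and 1015, against 3848 and 3419 at an adjusted p under 0.05, 5489 and 5391 with array weights, 4977 and 4781 without both replicate 4 arrays, 3893 and 3788 without wild-type replicate 4, and 1515 and 1653 after centring. Why the counts moved was not tested.

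Deviations of same-numbered arrays from their strain means correlated at -0.31, 0.01, -0.20 and -0.57 over all probe sets. None was clearly positive, but these values cannot show whether same-numbered arrays were prepared together. With the replicate block, all probe sets gave 236 higher and 79 lower calls, against 1924 and 1015 without it. The pairs *akt-2* minus *akt-1* (0.57), *sgk-1* minus *akt-1* (-0.72) and *ist-1* minus *daf-2* (0.48) had an exact p of 0.125 in the replicate block, the smallest it allows, and p = 0.1000 in the exact permutation test without both replicate 4 arrays (0.68, -0.76 and 0.43), likewise the smallest for 3 against 3. Without single arrays these ranged from 0.53 to 0.66, from -0.85 to -0.61 and from 0.42 to 0.55, and *age-1* minus *aap-1* ranged from -0.018 to 0.17, negative only without wild-type replicate 3, and *daf-18* minus *age-1* from -0.25 to -0.13.

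Uncalled genes near 0 changed sign. *aap-1* was at 0.013 with array weights, 0.023 after cyclic loess, and -0.082 to 0.022 without single arrays. *age-1* was at -0.10 after centring and -0.0033 to 0.126 without single arrays, and *akt-1* at -0.088 after centring. The other 7 genes kept their direction in all 16 alternative fits. The level filter, the intensity trend with robust spread, the replicate block and the averaging of probe sets leave these log2 fold changes as they were. Their direction could thus change only in the remaining fits.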
